A study of Mus musculus with 21 samples.

Results

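Fat sensing in the mouse tongue was examined here through 8 genes, the fatty acid receptor or transporter genes Cd36, Ffar1, Ffar2, Ffar3 and Ffar4 and the fatty acid binding protein genes Fabp3, Fabp4 and Fabp5. They were chosen by name, and each was found at 1 of the 32052 loci of the deposited expression table. RNA had been taken from dissected circumvallate papillae of wild-type C57BL/6J mice aged 20 to 24 weeks, and reverse transcribed from oligo(dT) primers. GEO's labels give 21 libraries, 7 Hungry, 7 Satiated and 7 Ad lib, with no fasting time, sex or pooling of animals stated. The table lists 3 conditions, but all 5 value columns were identical between them at every locus, so 0 of the 8 genes and 0% of all loci differed and no Hungry, Satiated or Ad lib level could be given. Each level below is the authors' mean over all 21 libraries of fragments scaled for library depth, and each SD is the root of the authors' variance, taken within 3 sets of 8, 7 and 6 libraries, sizes that do not match the 7, 7 and 7 of the labels. The mean library held 21882000 fragments compatible with an annotated transcript, and depth factors recovered for 20 libraries ran from 0.732 to 1.80.

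Fatty acids released from dietary fat are sensed by cell surface proteins. CD36 is a scavenger receptor that binds and carries long-chain fatty acids. FFAR1 and FFAR4, also called GPR40 and GPR120, are G protein-coupled receptors for long-chain fatty acids, whereas FFAR2 and FFAR3 respond to short-chain fatty acids such as acetate and propionate. CD36 and FFAR4 have been described in taste cells of the circumvallate papilla and studied as candidate fat taste receptors. FABP3, FABP4 and FABP5 are small cytosolic proteins that carry fatty acids inside cells, named for heart, adipocyte and epidermis. In bulk tissue, fewer cells of a type and less RNA per cell cannot be told apart.

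Taste bud markers were abundant. The taste bud keratin gene Krt8 had 37058 fragments, Rgs21 of type II cells had 31578, and Otop1, the proton channel of type III cells, had 13734. All 7 type II markers and all 5 type III markers were detected, where detection of a gene means that its locus averaged 10 or more compatible fragments. Type I markers were detected for 2 of 3. The other, Slc1a3, chosen with its values in view, had 9.87 compatible but 443 total fragments at a shared locus. All 6 keratinocyte markers were detected. Endothelial markers were detected for 6 of 10, macrophage markers for 6 of 6 found in the table, adipocyte markers for 3 of 8, muscle markers for 2 of 10 found in the table and enteroendocrine hormones for 0 of 6, with Gcg, the glucagon precursor gene, listed at 0.

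The start sites of the receptor genes are shown first, since the merged annotation places transcript models at them. The levels below are means over whole loci, so they cannot be assigned to 1 start site. RefSeq promoters (GRCm38.p6, 250 bases before to 50 after a start) matched 6 of the 8 genes, while Fabp4 and Fabp5 are named only. Each is given 5′ to 3′ on the strand of the gene, with capitals for CCAAT and GGGCGG on either strand.
Cd36 (chr5:17835847-17836146, minus strand): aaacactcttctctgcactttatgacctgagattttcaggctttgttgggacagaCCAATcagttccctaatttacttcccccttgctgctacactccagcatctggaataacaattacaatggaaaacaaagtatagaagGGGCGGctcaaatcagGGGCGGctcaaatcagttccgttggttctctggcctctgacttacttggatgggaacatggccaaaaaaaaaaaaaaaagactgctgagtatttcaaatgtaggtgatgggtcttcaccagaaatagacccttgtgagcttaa
Ffar4 (chr19:38096829-38097128, plus strand): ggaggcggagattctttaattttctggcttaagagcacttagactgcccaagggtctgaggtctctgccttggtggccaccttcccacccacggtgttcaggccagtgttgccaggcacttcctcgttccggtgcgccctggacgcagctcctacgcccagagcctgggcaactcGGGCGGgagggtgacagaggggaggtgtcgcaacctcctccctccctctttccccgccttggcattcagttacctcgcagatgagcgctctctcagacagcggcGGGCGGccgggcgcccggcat
Ffar2 (chr7:30821599-30821898, minus strand): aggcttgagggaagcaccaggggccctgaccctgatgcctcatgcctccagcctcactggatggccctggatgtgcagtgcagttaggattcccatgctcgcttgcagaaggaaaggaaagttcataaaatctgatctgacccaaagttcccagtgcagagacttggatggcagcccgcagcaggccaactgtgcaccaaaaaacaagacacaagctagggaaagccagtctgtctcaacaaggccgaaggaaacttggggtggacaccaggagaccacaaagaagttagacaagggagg
The Cd36 stretch holds 2 copies of GGGCGG, which start 109 and 93 bases before the start site, and 1 CCAAT at 195 bases before it. The Ffar4 stretch holds 2 copies of GGGCGG, 1 before and 1 after the start site, and the Ffar2 stretch neither motif. RefSeq gives 4 promoters for Ffar2, of which 2 that overlap each other hold 1 GGGCGG and 1 CCAAT, both on the opposite strand, and the other 2, the printed one among them, hold neither. CCAAT is present in 37.4% and GGGCGG in 35.7% of 32851 mouse promoters of this length, both strands counted. TATAAA and the PPAR element, a direct repeat of AGGTCA with 1 base between the copies, were searched too. Neither was found in the 9 promoters of the members. TATAAA occurs in 13.6% and the PPAR element in 0.0396% of all promoters. A match is a run of letters and shows no binding.

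Ffar4 and Cd36 were the receptor genes detected in these libraries, whose RNA came from dissected papillae and held markers of other cells as well. Ffar4 had 522 ± 99.7 compatible fragments and 564 total fragments (SD, n = 21 libraries), at a locus that holds no other gene (GRCm38, chromosome 19, 38097079 to 38114263, plus strand). Its only transcript model had 3 exons and 1393 bases, and 92.6% of the fragments at the locus were compatible with it. Cd36 had 514 ± 192 compatible and 535 total fragments (SD, n = 21), also alone at its locus (chromosome 5, 17781690 to 17888959, minus strand). Per library the raw levels of Ffar4 and Cd36 were thus close, but Cd36 transcripts are longer. Per kb of exon Ffar4 had 375 ± 71.6 fragments and Cd36 had 131 ± 48.9, a ratio of 2.87 of Ffar4 over Cd36, and the intervals of 1 SD did not overlap. With the longest protein-coding transcript as the length, the ratio was 2.60. This ratio, and every level per kb below, assumes that fragments rise with transcript length. That was not tested for this cDNA, which was primed from oligo(dT), and the ratio comes from the length and not from the raw levels. No test accompanies these differences, because no level per library is held in the table.

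Ffar2 stood just below the detection level. It had 8.24 ± 10.2 compatible and 8.50 total fragments (SD, n = 21) at a locus of its own (chromosome 7, 30818348 to 30823775, minus strand). The SD exceeded the mean, and by the variance at least 12.1% of its scaled fragments, or 20.9 fragments, came from 1 library. Its 7 transcript models fall into 4 start site groups of the merged annotation. Of the 7 models, 1 is named as an assembly of the program Cufflinks. It begins at the start site of the Ffar2 promoter shown above, as does a reference transcript. Per kb of exon Ffar2 had 2.95 ± 3.65 fragments, which places Ffar4 127 times higher, or 105 times higher with the longest protein-coding transcript.

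Ffar3 and Ffar1 were close to or at 0. Ffar3 had a mean of 0.195 compatible fragments (chromosome 7, 30854330 to 30856178, minus strand). Its variance over squared mean was 18.0, the value that fragments in 1 library of a set of 7 give, and its mean fits 3 whole fragments in a library with a depth factor of 0.732. The other 20 libraries then held none, and the exact 95% Poisson interval of 3 fragments is 0.619 to 8.77, for counting error only. Total fragments of Ffar3 averaged 0.410, and 1 combination of up to 4 libraries fits their mean and variance. It has 7 fragments in 3 libraries, with 5 of them in the same library and 1 in each of 2 others. Ffar1, as 1 of the 8 genes, was listed at 0 compatible and 0 total fragments (chromosome 7, 30860473 to 30861564, minus strand). A count of 0 allows up to 3 fragments over all 21 libraries, a mean of 0.143. Of all loci, 37.7% were at 0 compatible fragments and 8.29% at 0 in both columns, as were 5.18% of 13014 protein-coding loci of 1 gene.

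The 3 Ffar loci lie within 43.2 kb of each other, in the order Ffar2, Ffar3 and Ffar1, and Ffar4, the FFAR gene that was detected, is not among them. The model of Ffar1 used by the authors is a single exon of 1092 bases. In GENCODE M21 the Ffar1 transcript runs from 30857390 to 30861564, 4175 bases on the genome, so it extends past that exon. Its far end coincides with a separate gene of the merged annotation, RP24-63G4.6 (30857390 to 30857864), which had 0 compatible and 0.195 total fragments. That mean fits 3 fragments in the same library that held the Ffar3 fragments. Sequence between 30857864 and 30860473 belongs to no locus of the table, so fragments from the longer Ffar1 transcript were not counted there.

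**Figure D1:**
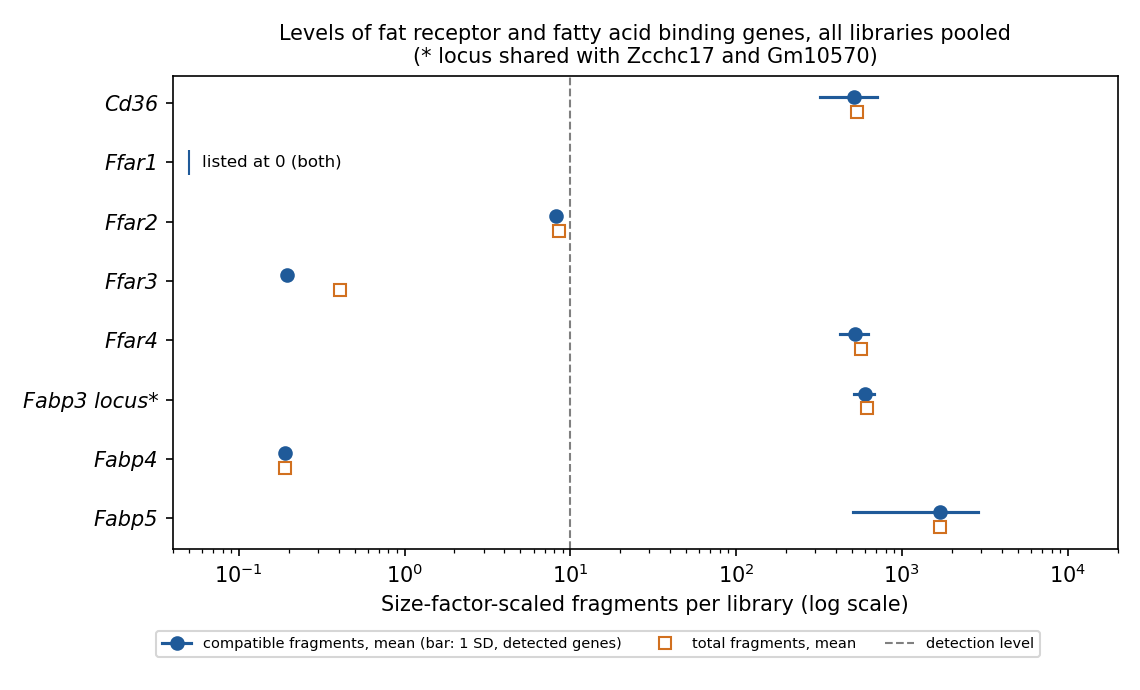
Mean compatible fragments (filled circles, bar of 1 SD for detected genes) and mean total fragments (open squares) per library of the 8 genes, on a log axis, with the detection level of 10 fragments as a dashed line. Cd36, Ffar4, Fabp5 and the shared Fabp3 locus lie between 514 and 1697 compatible fragments, Ffar2 lies at 8.24, Ffar3 and Fabp4 lie under 1 and Ffar1 is listed at 0.

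Fabp5 was far higher than Fabp4, the other binding protein gene with a locus of its own. The epidermal binding protein gene Fabp5 had 1697 ± 1186 compatible and 1702 total fragments (SD, n = 21; chromosome 3, 10012548 to 10016607, plus strand), and 99.7% of its fragments were compatible. Per kb of exon it had 476 ± 333 fragments, within 1 SD of Ffar4. Its exon length of 3567 bases is set by a model that retains intron sequence, whereas the longest protein-coding transcript has 987 bases. With that length Fabp5 had 1719 ± 1202 fragments per kb, 4.58 times Ffar4 and 11.9 times Cd36. That length was added after the exon lengths had been seen. Of the 50-base stretches of protein-coding Fabp5 transcripts, 21.1% also occur in transcripts of 5 other genes. The largest share, 19.6%, is held by Gm6166, which had 205 fragments of its own, so part of either level may belong to the other.

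Fabp4, the adipocyte and endothelial binding protein gene, was nearly absent. Its mean of 0.189 fragments was the same in both columns (chromosome 3, 10204088 to 10208576, minus strand). The variance over squared mean of 18.0 is again that of 1 library in a set of 7, and the mean fits 4 whole fragments in a library with a depth factor of 1.01, not the library of Ffar3. The other 20 libraries held none, and the exact 95% Poisson interval of 4 fragments is 1.09 to 10.2, for counting error only. None of its 50-base stretches occurs in transcripts of other genes. Beside this level, the adipocyte markers Adipoq and Cfd were at 0 compatible fragments, Plin1 was at 0.147 and Retn at 0.218. Lep was at 10.6, and all 6 adipocyte markers at loci of 1 gene summed to 10.96 fragments. The other adipocyte markers were detected at loci shared with another gene, Pnpla3 at 572 and Lipe at 129. The endothelial markers were not uniformly low, since Vwf had 1508 fragments, Tek 811 and Pecam1 42.6, but Cdh5 had 0.0403 and Tie1 0.0897, with 209 total fragments at Cdh5. Their part in the Fabp4 and Cd36 levels was not tested.

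Fabp3, the heart and muscle binding protein gene, has no level of its own in this table. Its exons lie in a locus that also holds Zcchc17, a zinc finger gene on the other strand, and the antisense gene Gm10570 (chromosome 4, 130308162 to 130359943). The locus had 596 ± 83.9 compatible and 612 total fragments (SD, n = 21), and these cannot be divided among the 3 genes. Of the 50-base stretches of Fabp3, 37.3% occur in transcripts of 3 other genes, with the largest share, 29.2%, in the pseudogene Fabp3-ps1. The locus of that pseudogene, which also holds BC030307, had 97.5 fragments. Fabp3 counted as detected only through a shared locus. The 3 muscle markers at loci of 1 gene summed to 8.35 fragments. The detected muscle markers lie at loci shared with other genes, Myh2 at 44.1 fragments and Tnnt3 at 17.9, and the part of muscle in the level of the Fabp3 locus was not tested. Among 13467 detected loci, 35.4% hold several genes.

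**Figure D2:**
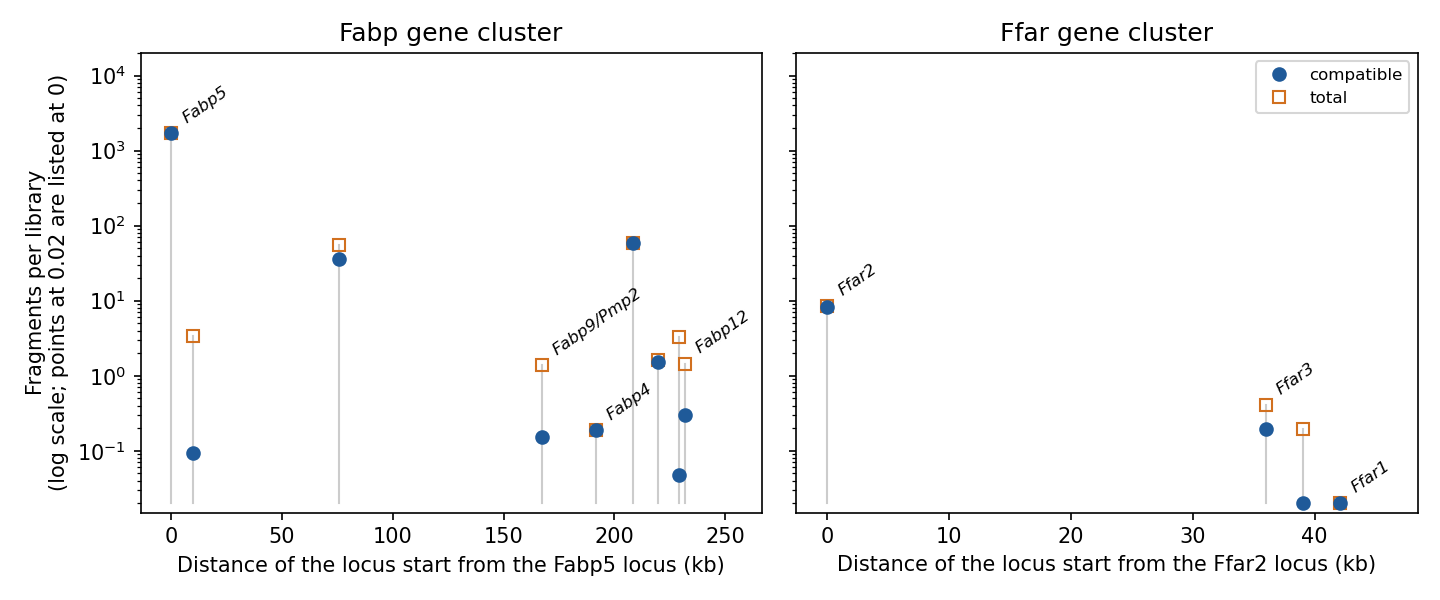
Mean compatible (filled circles) and total (open squares) fragments per library, on a log axis, against the distance in kb from the first locus of the chromosome 3 Fabp cluster (left) and the chromosome 7 Ffar cluster (right). Fabp5 at 1697 fragments stands far above Fabp9 with Pmp2, Fabp4 and Fabp12, all under 1 compatible fragment, and Ffar2 at 8.24 above Ffar3 and Ffar1.

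The Fabp genes of chromosome 3 differed widely in level although they lie within 289 kb. Fabp5, at one end, had 1697 fragments. Fabp4 lies 192 kb away and had 0.189, and Fabp12, at the other end, had 0.303. Fabp9 and Pmp2, the testis and myelin binding protein genes, share a locus with 0.151 compatible fragments. Outside this cluster, Fabp7, the brain binding protein gene, had 38.5 fragments and Fabp6, the ileal bile acid binding protein gene, had 12.8. Fabp1, the liver binding protein gene, had 0.185 compatible but 99.3 total fragments. It was chosen with its values in view. Of the 7 other binding protein genes, 2 were detected by compatible fragments and 4 by total fragments.

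In all, 4 of the 8 genes were detected, 3 of them at a locus of their own, while 42% of all 32052 loci and 55.6% of protein-coding loci of 1 gene were. Detection comprised 2 of 5 receptor genes and 2 of 3 binding protein genes. Ordered by fragments per kb of exon, the 7 genes with a locus of their own ran Fabp5, Ffar4, Cd36, Ffar2, Ffar3, Fabp4 and Ffar1. By this length the 1 SD intervals of Fabp5 and Ffar4 overlapped, whereas with the longest protein-coding transcript Fabp5 at 1719 ± 1202 and Ffar4 at 375 ± 71.6 per kb did not overlap. The SD of Ffar2 exceeds its mean, and Ffar3 and Fabp4 rest on 3 and 4 fragments and swap places with the longest protein-coding transcript. The middle 50% of detected protein-coding loci of 1 gene lay between 42.4 and 446 fragments per kb. Ffar4 stood at percentile 70.8 of these loci, Fabp5 at 76.4 and Cd36 at 46.3. With the longest protein-coding transcript Fabp5 stood at percentile 92.0.

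**Figure D3:**
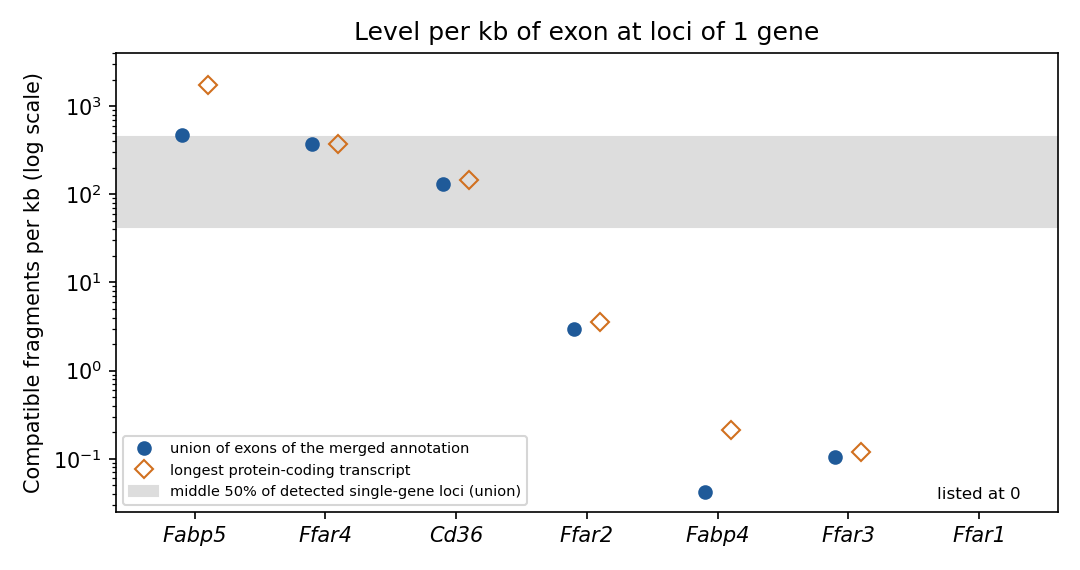
Compatible fragments per kb, on a log axis, of the 7 genes with a locus of their own, by the union of exons (filled circles) and by the longest protein-coding transcript (open diamonds). The grey band covers the middle 50% of detected protein-coding loci of 1 gene, 42.4 to 446 per kb, and Ffar4 at 375 and Cd36 at 131 lie inside it.

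Sweet and umami receptor genes were set beside these levels. Tas1r1, a subunit of the umami receptor and the 1 of the 3 genes alone at its locus, had 603 ± 115 fragments, or 126 ± 24.0 per kb of exon (SD, n = 21). Cd36 at 131 ± 48.9 per kb lay within 1 SD of it, while Ffar4 at 375 ± 71.6 per kb lay above it with no overlap of the 1 SD intervals. With the longest protein-coding transcript, Cd36 at 144 per kb was below Tas1r1 at 211, and Ffar4 at 375 was above it by a smaller factor. The other sweet and umami receptor genes lie at loci shared with other genes, which had 4149 fragments for Tas1r2 and 2686 for Tas1r3. Per kb of exon these shared loci had 282 and 317 fragments, below Ffar4. With the longest protein-coding transcript at the locus they had 726 and 762, above Ffar4. Their fragments cannot be divided among the genes, so Ffar4 is compared with Tas1r1 only. These values describe the same 21 libraries, and the differences were not tested.

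The detected genes differed in their spread between libraries. The CV, the SD over the mean, was 0.699 for Fabp5, 0.374 for Cd36, 0.191 for Ffar4 and 0.141 for the Fabp3 locus, against a median of 0.231 over detected loci. Among the 100 detected protein-coding loci of 1 gene nearest in level, 5 had a larger CV than Cd36, 65 a larger one than Ffar4 and 0 a larger one than Fabp5. The authors' model predicts a variance for each level, and 26.1% of detected loci lay above it, as did 25.3% of detected protein-coding loci of 1 gene. Of the 4 detected genes, Fabp5 and Cd36 lay above their fitted variance, by log2 ratios of 3.76 and 0.84. Ffar4 and the Fabp3 locus lay below it, at −1.08 and −1.81. The median of detected protein-coding loci was −0.66.

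For Fabp5 the variance requires that, in at least 1 set, the highest and the lowest library differed by 2372 or more scaled fragments, and that at least 1 library held 2526 or more. The corresponding smallest differences within a set were 384 fragments for Cd36 and 199 for Ffar4. Which libraries were high or low, and from which condition, is not held in the table.

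**Figure D4:**
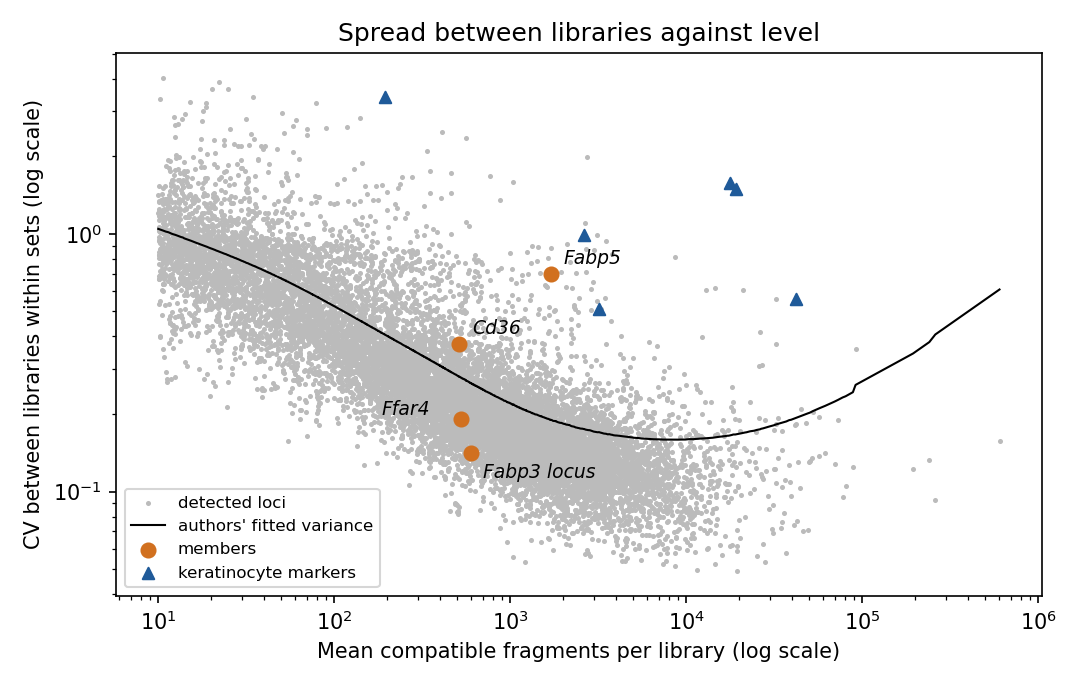
CV between libraries against mean compatible fragments, both on log axes, for all detected loci (grey), with the authors' fitted variance as a black line, the detected genes as orange circles and keratinocyte markers as blue triangles. Fabp5 (CV 0.699) and Cd36 (0.374) lie above the line, Ffar4 (0.191) and the Fabp3 locus (0.141) below it, and all 6 keratinocyte markers lie above it.

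Fabp5 is expressed in keratinocytes of stratified epithelium, and the markers of those cells were variable too. All 6 keratinocyte markers lay above their fitted variance, with a median log2 ratio of 5.56. Krt13, a keratin of the oral surface, had 17703 fragments and a ratio of 6.51, Krt4, its partner, had 19096 and 6.34, and Krt6a had 41906 and 3.08. The basal keratin gene Krt5 had a ratio of 3.19, less than Fabp5. None of 4 type II markers at loci of 1 gene lay above the fitted variance, and Krt8 of taste bud cells was at −3.40. Of 3 type III markers at loci of 1 gene, 2 lay above their fitted variance, Pkd2l1 at 0.53 and Car4 at 0.063. The type I marker Kcnj1 lay above its fitted variance too, at 0.28. Whether Fabp5 was high in the libraries that were high in keratins cannot be read from a mean and a variance, and the part of keratinocytes in the Fabp5 spread was not tested. Beside Cd36, 3 of the 4 endothelial markers detected at loci of 1 gene lay below their fitted variance, with Vwf at −0.52, whereas Kdr, at 10.7 fragments, had a ratio of 3.95 with at least 82.6% of its fragments in 1 library. Of the 4 macrophage markers at loci of 1 gene, 3 lay above it, led by C1qa at 0.45, and their fragments summed to 250. The part of these cells in the Cd36 spread was not tested.

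**Figure D5:**
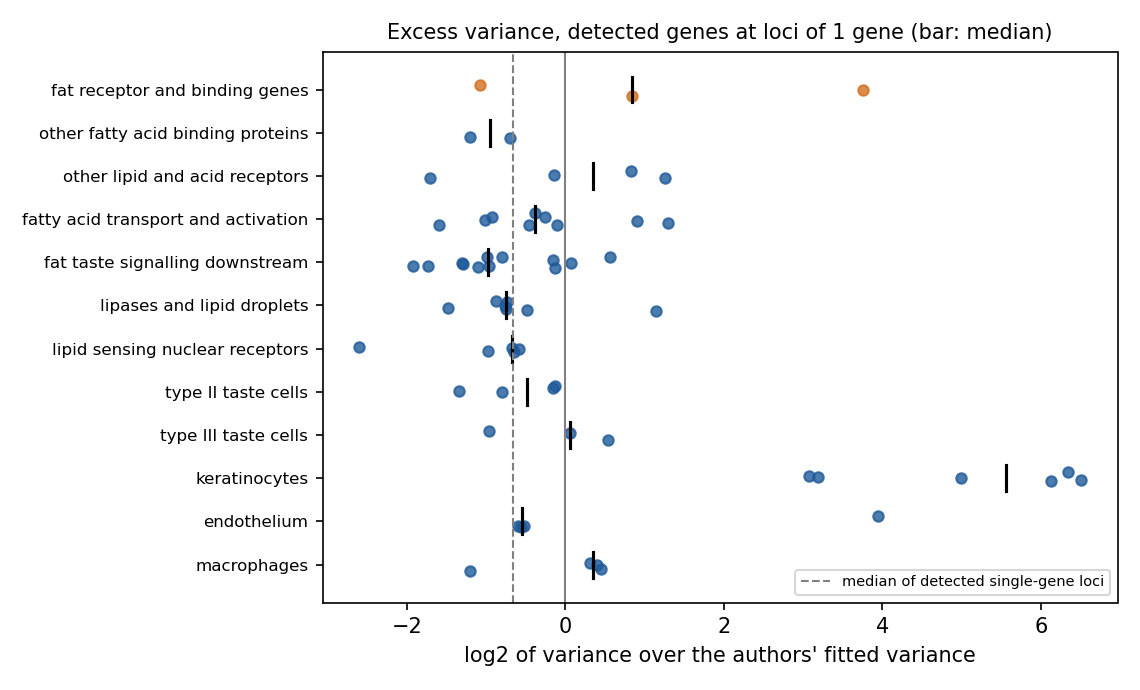
Log2 of the variance over the authors' fitted variance for each detected gene at a locus of its own, by list, with the list median as a black bar and the median of detected protein-coding loci of 1 gene, −0.66, as a dashed line. Fabp5 at 3.76 lies within the span of the keratinocyte markers (3.08 to 6.51). Ffar4 at −1.08 lies within the span of several lists, among them taste signalling genes, macrophages (Cd68 at −1.20) and lipases (Plin3 at −1.49). The type I, taste bud keratin, adipocyte, muscle, hormone and sweet and umami lists are not drawn.

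Genes that act around these receptors were counted in 6 lists. They held 82 genes, 81 of them in the table, and 57 were detected, beside the 42% of all loci that were. Of the 59 list genes at loci of 1 gene, 39 were detected, beside 55.6% of all protein-coding loci of 1 gene. For signalling downstream of fat receptors in taste cells, 21 of 24 genes were detected. Gnat3, the taste G protein gustducin, had 24576 fragments, Gna14, another G protein alpha subunit, had 14587, and Calhm3, a subunit of the ATP release channel, had 3778. Among potassium channel genes, Kcna2 was at 0 fragments and the locus that Kcna5 shares with Kcna1 at 0.0480. Of 12 such genes at loci of 1 gene, 2 lay above their fitted variance, and the median log2 ratio was −0.98. For fatty acid transport and activation, 12 of 14 were detected. Acsl4 and Acsl5, which join fatty acids to coenzyme A, had 6120 and 4574 fragments, and Got2, a mitochondrial aminotransferase also described as a fatty acid binding protein of the plasma membrane, had 2761.

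Lipase and lipid droplet genes were detected for 11 of 17 members, led at loci of 1 gene by Pnpla2, the adipose triglyceride lipase, with 1168 fragments. The droplet coat genes Plin3 and Plin2 had 967 and 924. Lpl, which releases fatty acids from lipoproteins, had 264, while its endothelial anchor Gpihbp1 was at 0 and the gastric lipase gene Lipf, expressed in lingual glands of rodents, was at 3.04. Lipid-sensing nuclear receptor genes were detected for 6 of 9 members. Nr1h2, the oxysterol receptor LXR beta, had 1341 fragments, Rxra had 544 and Rxrb 377. The PPAR genes, whose products bind fatty acids, differed, with Ppard at 253, Pparg at 91.3 and Ppara at 2.59. Of 11 other lipid and acid receptor genes, 10 were in the table and 5 were detected. Hcar2, the receptor for niacin and the ketone body beta-hydroxybutyrate, had 291 fragments with a CV of 0.539 and a log2 ratio of 1.26. Scarb1, the scavenger receptor that takes up lipids from HDL, had 195 and the cannabinoid receptor gene Cnr2 had 15.2. Gpr119, a receptor for lipid amides, was at 0, and Cnr1, the other cannabinoid receptor gene, at 0.189. Lpl, Gpihbp1, Lipf, the PPAR genes, Gpr119, Cnr1, Kcna5, Kcna2, Fabp9, Pmp2 and the markers Gcg, Pnpla3, Lipe, Myh2, Tnnt3, Kdr, Cdh5, Tie1, Adipoq, Cfd and Krt5, as well as Tas1r2 and Tas1r3, were chosen with their values in view.

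Cd36, Ffar2, Ffar3 and Fabp4 have transcript models named as Cufflinks assemblies. Each such model begins at the start site of a reference transcript, and how far reads support its structure was not examined. The share of all loci that hold such a model was not counted. The Cufflinks models of Ffar2 and Ffar3 were classed as matching a reference transcript. The Cd36 locus has 5 models from 3 start sites, 1 of them a new isoform of 15 exons and 3542 bases that begins at base 17835896, the start site of the Cd36 promoter shown above. A reference transcript of 15 exons and 3539 bases begins at the same base. Among detected protein-coding loci of 1 gene, 39.5% hold a new isoform. The Fabp4 locus also has a new isoform, of 3 exons and 1503 bases, although its 21 libraries held 4 fragments in all. Among 3710 loci with a mean above 0 and under 1 fragment, 11.9% hold a new isoform and 15.1% a Cufflinks model. Ffar1, Ffar4, Fabp3 and Fabp5 had models from the reference annotation only. Models of Zcchc17 and Gm10570, at the Fabp3 locus, were not counted here.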

How the data were processed

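RNA sequencing of 21 circumvallate taste bud libraries (7 per group) was used as deposited. Trimmomatic, FastQC, TopHat, Bowtie2, Cufflinks, Cuffdiff and GRCm38.p4 are named per the submitters' processing notes, with versions and settings not given in the sources used here. Per the file headers, the deposited values are a signal, the mean and variance of size-factor-scaled fragments, compatible or total, with a fitted variance, all credited to the authors. The exon coordinates of the authors' merged annotation gave the genes of each locus.

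Loci of 1 gene symbol were kept apart from shared ones. Detection was a mean of at least 10 compatible fragments. Loci seen in 1 library showed that the variance is the sum of squares within sets of 8, 7 and 6 libraries over 21. Tolerances were 0.0001 for the variance and 0.0002 for whole fragments. The smallest share of a leading library is 1 plus the variance over squared mean, divided by 21. The smallest range within a set is 2 SD. Levels per kb used the union of exons. In simulated data for these pooled values (32052 loci), set sizes and whole fragments were recovered at 3710 of 3710 loci seen in 1 library, with 0 of 21 library units wrong. The simulation was built with sets of 8, 7 and 6 and with each low locus in 1 library. It therefore checks the decoding only and cannot show that these set sizes hold. In the deposited values 20 library units were recovered. Members and lists were chosen with earlier results of these data known. All 8 members, the 3 highest genes at loci of 1 gene per list and genes marked in the text are named. No gene was named for likeness to a member, since no level per library is held in the table. Computation used numpy 2.4.6 and pandas 2.3.3 under Python 3.11.15, and figures matplotlib 3.10.9.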

Additional observations from a re-analysis of the deposited data

How the results depend on the processing

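No paired analysis was possible because the table holds no level per library, and for the same reason no library could be left out. The median level per kb of the 8 genes was 53.5 by the union of exons and 73.8 both by the longest reference transcript and by the longest protein-coding transcript, a length added after the exon lengths were seen. With that length Fabp5 had 1719 per kb and the Fabp3 locus 282, against 280 with the longest reference transcript. The median log2 ratio of variance over fitted variance of the 4 detected genes was −0.12, and it reversed to 0.62 with a running median of 100 loci in place of the fitted variance and to 0.52 with total fragments and a running median. A running median lies lower than the fitted variance at these levels. Of the values of single genes, 29 levels or levels per kb did not move or moved by less than the spread between libraries. These include Ffar1, at 0 throughout, and Ffar2, Ffar3 and Fabp4, whose SD exceeds the mean, so they show little. Fabp4 went from 0.0421 to 0.211 per kb and still counted as unmoved. The 11 others counted as moved were levels per kb of Fabp3 or Fabp5, which moved by more than the spread between libraries, and log2 ratios. A log2 ratio has no spread between libraries here to be set against. Signs of the ratios held under both, with Fabp5 at 4.64 and 4.39, Cd36 at 1.58 and 1.31, Ffar4 at −0.34 and −0.26 and the Fabp3 locus at −0.87 and −1.12. Genes detected numbered 4, or 5 with a mean of at least 1 fragment and 3 at loci of 1 gene. The lists had 57 detected genes, 63 with at least 1 fragment, 49 with at least 50 and 61 by total fragments. The compatible levels of Ffar3 and Fabp4 each rest on 1 library.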

Other observations

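Among receptors of the lists, Gpr31b, a receptor for a hydroxylated fatty acid, had 0.0824 compatible but 243 total fragments. Slc27a3, a fatty acid transport protein gene, had 31.9 compatible and 613 total fragments, and its CV was 1.05. Calhm1, the partner of Calhm3 in the ATP release channel, had 43.2 compatible and 276 total fragments. The adipocyte gene Adipoq had 0 compatible and 85.5 total fragments. Among the members, the compatible share was lowest at Ffar3, 47.7%, and at least 92.6% at Cd36, Ffar2, Ffar4, the Fabp3 locus, Fabp4 and Fabp5. Within the Fabp cluster, the clone-named gene RP23-436F15.6, which lies between Fabp4 and Fabp12, had 59.2 fragments with a CV of 0.725, more fragments than Fabp4, Fabp12 or the locus of Fabp9 and Pmp2. Apart from the members and Fabp12, the genes of these lists and loci were chosen with their values in view.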
